A study of Mus musculus with 22 samples.

Results

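This account covers 10 genes that mark hepatic stellate cells or carry their signals to neighbouring liver cells: Hgf, Rspo3, Reln, Pdgfrb, Pdgfra, Ngfr, Lhx2, Hand2, Tcf21 and Gfap. They were taken by gene symbol from the deposited tables, where each had 1 row among 55573 genes in stellate cells and 55401 in hepatocytes. RNA was sequenced from primary mouse liver cells in culture, all of wild-type C57BL/6 mice on a chow diet. Cells were plated for 24 h and then treated for 24 h. Stellate cells received iron at 100 uM (5 libraries) or placebo (5 libraries, called control). Hepatocytes received deferoxamine (DFO, a chelator that binds iron) at 100 uM (6 libraries) or placebo (6 libraries, control). Whether a group's libraries came from separate animals or cultures is not stated. All values are from cultured cells, in which stellate cells are known to leave their resting state, and the iron salt is not named.

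Stellate cells lie between hepatocytes and the sinusoidal endothelium, store vitamin A, and turn into collagen-forming myofibroblasts after injury. HGF and R-spondin 3, which they secrete, act on hepatocytes: HGF binds the receptor MET and drives growth, and R-spondin 3 binds LGR receptors and strengthens WNT signalling around the central vein. PDGF receptors receive growth signals from endothelium, platelets and macrophages, and the transcription factors LHX2, HAND2 and TCF21 are known from the development of mesenchymal cells.

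Rspo3, Reln and Pdgfrb were lower in iron-treated stellate cells. Rspo3 was 7.44-fold lower, Reln 5.83-fold lower and Pdgfrb 1.9-fold lower than in control cells over all 10 libraries. These 3 of the 10 genes passed the test (edgeR quasi-likelihood, Benjamini-Hochberg adjusted p under 0.05), against 3.37% of all 15502 genes tested that were called lower. No gene of the 10 was called higher, where 4.05% of all genes were, and 0 were higher at an unadjusted p under 0.05 in edgeR or at an adjusted p under 0.05 in DESeq2. In voom with sample quality weights 1 of them, Ngfr, was higher.

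Control library 3 and iron libraries 3 and 5 stood apart from the other 7 stellate libraries, so each of the 10 genes is given with and without these 3. Other named genes and summed markers are given over all 10 libraries unless the 7 are named. Their FPKM values (counts scaled to exon length and to library total) summed to 424253 to 503333 per library, and those of the remaining 7 to 297988 to 333718. Counts fell on genes with a mean exonic length of 4.27 kilobases in iron 3, 4.02 in iron 5 and 7.23 in control 3, where the remaining libraries had 5.16 to 5.69. In the 7 libraries (3 iron, 4 control) 7 of the 10 genes were called lower, against 19.8% of 16287 genes tested. None of the 10 was called higher there in edgeR, 0 at an unadjusted p under 0.05 as well, against 18.3% of all genes. The 7 were Reln, Pdgfrb, Hgf, Rspo3, Lhx2, Hand2 and Tcf21. The median log2 fold change of the 10 genes was -0.91 in 10 libraries and -0.64 in 7, against -0.06 and 0.01 for all genes tested. Total counts were 12058226 to 32067635 per stellate library and 19342490 to 41839154 per hepatocyte library.

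The libraries held the markers of their label, stellate cells, and markers of other liver cells too. All 14 stellate markers were measured, and their summed level was 1510.1 to 2642.9 CPM (counts scaled to library total, with TMM normalisation) in iron libraries and 2639.2 to 3288.9 CPM in controls. In the 7 libraries the sums did not overlap, at 1510.1 to 1633.9 CPM in iron and 2880.2 to 3288.9 CPM in controls. Of these 14, 4 were called lower and 0 higher in edgeR over 10 libraries (0 at an unadjusted p under 0.05, and 0 in DESeq2), with a median log2 change of -0.79. Bmp5, Lrat, Dcn and Steap4 were the 4. Without any one of controls 1 to 5, iron 3 or iron 4 the count was 1, without iron 1 or iron 2 it was 2, and without iron 5 it was 7. Lrat lost its call in 7 of these fits (adjusted p up to 0.0760), Dcn in 9 (up to 0.0987) and Steap4 in 9 (up to 0.119), and Bmp5 in 0. In the 7 libraries 11 were called lower and 0 higher, with a median of -0.99. The shares over all genes tested were 3.37% lower and 4.05% higher over 10 libraries, and 19.8% and 18.3% in the 7. Bmp5, a BMP ligand, gave a log2 fold change of -1.91 ± 0.29 (SE; edgeR adjusted p = 0.00291), at 17.3 ± 7.41 CPM in iron and 65.2 ± 4.07 CPM in control cells (SD, n = 5 each). Des, the filament protein desmin, gave a log2 fold change of 0.28 over 10 libraries (adjusted p = 0.637), but was called lower in the 7 libraries, at -0.63 (edgeR adjusted p = 1.35e-05). The macrophage list moved the other way: 13 of its 14 genes were tested and all 13 were called higher in both sets of libraries. Their summed level was 2194.9 to 3522.3 CPM in iron and 195.6 to 272.6 CPM in controls. Clec4f, a Kupffer cell lectin, was at 88.9 ± 26.8 CPM in iron and 0.328 ± 0.187 CPM in control cells (SD, n = 5 each). Of the 12 sinusoidal endothelial markers 5 were called higher over 10 libraries, 8 without iron 5, and 11 in the 7, where 1 was called lower. Their summed levels over 10 libraries were 760.9 to 944.6 CPM in iron and 719.0 to 962.1 CPM in controls. In the 7 libraries they did not overlap, at 911.9 to 944.6 CPM in iron and 719.0 to 783.7 CPM in controls. The summed hepatocyte markers were 50.1 to 125.0 CPM in iron and 150.6 to 253.0 CPM in controls. The part of these markers in the results below was not tested, and in bulk RNA fewer cells of a type and less RNA per cell cannot be told apart.

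The 250 bases before the RefSeq start of transcription (GRCm38.p6) were searched for letters bound in general by the kinds of factor among these genes. RefSeq windows were matched for 8 of the 10 genes, and not for Pdgfrb and Rspo3. The motifs were CATCTG and CAGCTG (E-boxes of the kind that basic helix-loop-helix factors such as HAND2 and TCF21 bind), TAATTA (LIM homeodomain factors such as LHX2) and GATAA (GATA factors). Exact matches on both strands are in capitals. The windows of 3 genes that were lower in the 7 libraries are shown, Reln because it passed the test in both sets of libraries, the others because they encode factors of these kinds. Reln lies on the minus strand of chromosome 5, Lhx2 on the plus strand of chromosome 2 and Hand2 on the plus strand of chromosome 8. The windows are chr5:22344706-22344955, chr2:38339031-38339280 and chr8:57320733-57320982.
Reln: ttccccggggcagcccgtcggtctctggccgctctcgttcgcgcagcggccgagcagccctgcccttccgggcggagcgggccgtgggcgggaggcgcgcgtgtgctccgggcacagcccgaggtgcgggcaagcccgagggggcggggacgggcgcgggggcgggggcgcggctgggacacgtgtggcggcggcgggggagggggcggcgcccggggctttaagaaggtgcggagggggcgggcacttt
Lhx2: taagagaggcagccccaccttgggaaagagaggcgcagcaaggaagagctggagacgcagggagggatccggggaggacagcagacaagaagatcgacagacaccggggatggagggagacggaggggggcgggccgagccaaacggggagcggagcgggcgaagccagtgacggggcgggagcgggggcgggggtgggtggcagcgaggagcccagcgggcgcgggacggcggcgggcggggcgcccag
Hand2: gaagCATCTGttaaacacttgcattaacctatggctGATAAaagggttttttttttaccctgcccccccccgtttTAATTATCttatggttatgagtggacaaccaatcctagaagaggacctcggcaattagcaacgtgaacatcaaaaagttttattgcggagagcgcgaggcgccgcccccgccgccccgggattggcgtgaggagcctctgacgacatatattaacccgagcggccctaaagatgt
The Hand2 window held CATCTG once, TAATTA once and GATAA at 2 places, of which 1 overlaps the TAATTA match. The Reln window, of 80.0% G and C, and the Lhx2 window, of 72.8%, held no match. Of the other windows, Pdgfra held CATCTG, Ngfr held CAGCTG and Tcf21 held GATAA, each at 1 place, and those of Hgf and Gfap held none. Of all 32851 windows of this length 14.4% held CATCTG, 13% CAGCTG, 4.84% TAATTA and 22.6% GATAA. A match of letters is a description of the window and not evidence of binding.

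The plot of levels by library shows all 10 genes in the stellate libraries.

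**Figure D1:**
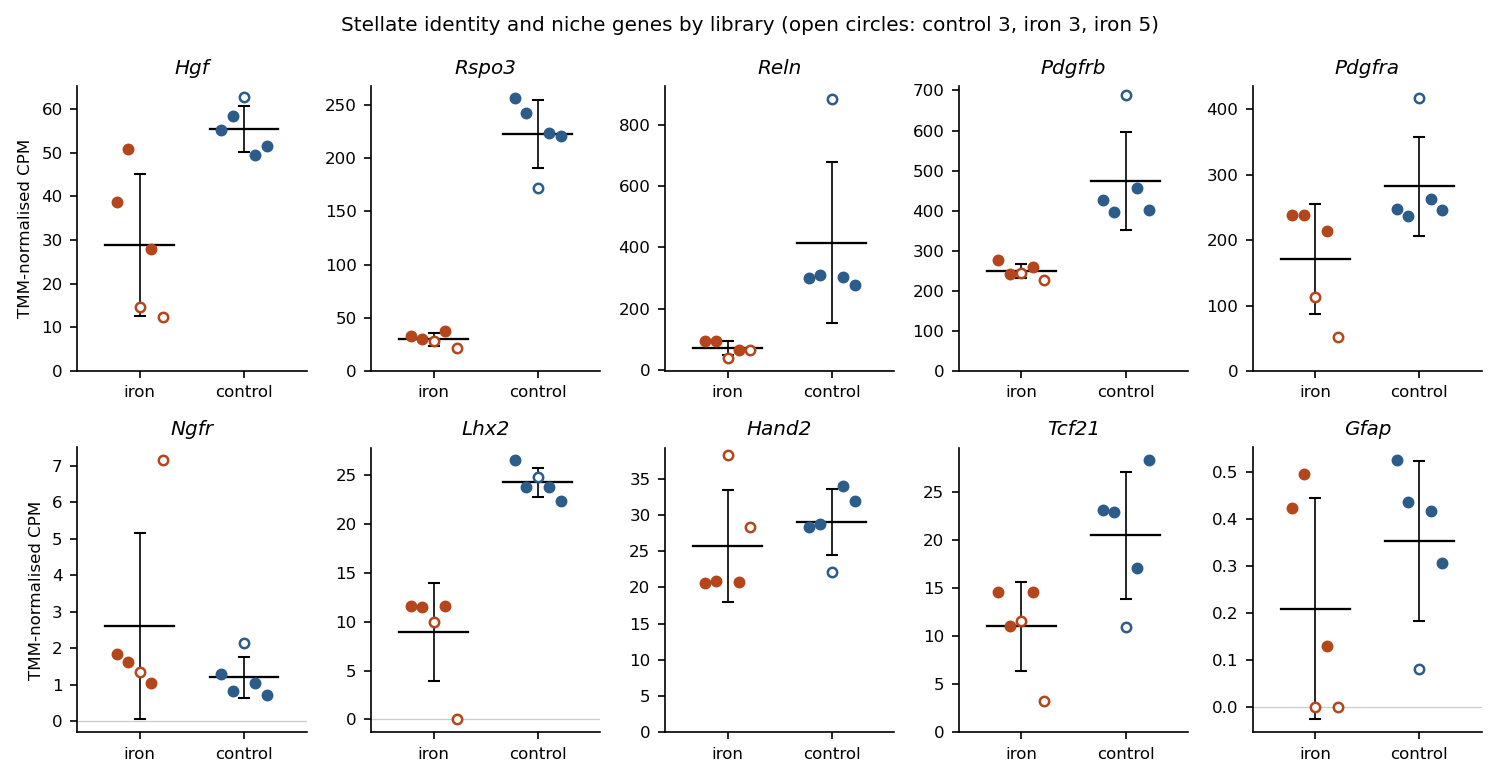
TMM-normalised CPM of each gene in the 5 iron and 5 control stellate libraries (points; line and bar, mean ± SD), with control 3, iron 3 and iron 5 as open circles. Rspo3, Reln, Pdgfrb and Lhx2 show no overlap between groups, and the open circles lie farthest from the rest for Reln, Pdgfra, Lhx2 and Ngfr.

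Among the secreted factors, Rspo3 (chromosome 10, 29452416 to 29535867, minus strand, mm10 as in the tables) had 32.4, 30.4, 27.7, 38.0 and 21.4 CPM in iron libraries 1 to 5, against 256.2, 242.3, 171.8, 224.2 and 221.1 CPM in control libraries 1 to 5. All iron libraries lay below all controls, and the 3 libraries that stood apart were not outside this pattern. Its log2 fold change was -2.90 ± 0.20 over 10 libraries (SE; edgeR adjusted p = 1.94e-05) and -2.82 ± 0.10 in the 7 (adjusted p = 5.1e-10). It kept its call when any single library was left out, with log2 changes of -3.0 to -2.80.

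Hgf (chromosome 5, 16553495 to 16620152, plus strand) had 38.7, 50.8, 14.6, 28 and 12.3 CPM in iron libraries 1 to 5, against 55.3, 58.4, 62.8, 49.4 and 51.5 CPM in controls 1 to 5. The groups overlapped by 1 iron library, iron 2, and the lowest values were those of iron 3 and iron 5. This gave a log2 fold change of -0.94 ± 0.36 over 10 libraries (SE; edgeR adjusted p = 0.125) and -0.45 ± 0.15 in the 7 (adjusted p = 0.0321).

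Reln, which encodes the secreted glycoprotein reelin, known from neuronal migration and in liver as a stellate cell product (chromosome 5, 21884454 to 22344702, minus strand), had 95.0, 94.1, 38.7, 63.3 and 65.1 CPM in iron libraries 1 to 5. Its control libraries 1 to 5 had 300.7, 309.9, 885.1, 303.4 and 277.3 CPM. The groups did not overlap, and control 3 was far above the other controls. In edgeR the log2 change was -2.54 ± 0.40 over 10 libraries (SE; edgeR adjusted p = 0.00324) and -1.82 ± 0.12 in the 7 (adjusted p = 1.62e-07). The fold was thus 5.83-fold lower with the 3 libraries and 3.53-fold lower without them. Reln has the longest exonic length of the 10 genes, 23738 bases, and the part of length in the value of control 3 was not tested.

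Of the receptors, Pdgfrb, which binds PDGF-B and PDGF-D and is carried by mesenchymal cells of the liver (chromosome 18, 61045150 to 61085061, plus strand), had 275.7, 242.6, 244.8, 258.3 and 226.2 CPM in iron libraries 1 to 5. Controls 1 to 5 had 426.9, 396.2, 688.0, 456.4 and 400.7 CPM. The groups did not overlap, and the iron libraries lay within a narrow range. The log2 change was -0.92 ± 0.19 over 10 libraries (SE; edgeR adjusted p = 0.0132) and -0.70 ± 0.07 in the 7 (adjusted p = 8.19e-06). Csf1r, the macrophage growth factor receptor, starts 15537 bases past the end of Pdgfrb on the same strand and moved the other way. It was at 70.7 ± 12.0 CPM in iron and 22.3 ± 4.27 CPM in control cells (SD, n = 5 each), and its log2 change was 1.66 ± 0.20 (edgeR adjusted p = 0.000675).

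Pdgfra, the receptor that also binds PDGF-A (chromosome 5, 75152292 to 75198215, plus strand), had 238.1, 238.7, 113.5, 214.8 and 51.9 CPM in iron libraries 1 to 5, against 247.9, 237.7, 417.6, 262.3 and 246.1 CPM in controls 1 to 5. Iron 3 and iron 5 were low and control 3 was high, while the other libraries overlapped. Its log2 fold change was -0.72 ± 0.38 over 10 libraries (SE; edgeR adjusted p = 0.236) and -0.11 ± 0.07 in the 7 (adjusted p = 0.224). Without the 3 libraries the level was 230.6 ± 13.6 CPM in iron (n = 3) and 248.5 ± 10.2 CPM in control cells (SD, n = 4).

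Ngfr, the low-affinity neurotrophin receptor p75 (chromosome 11, 95568818 to 95587735, minus strand), had 1.84, 1.63, 1.36, 1.04 and 7.14 CPM in iron libraries 1 to 5, against 1.30, 0.828, 2.13, 1.04 and 0.730 CPM in controls 1 to 5. The groups overlapped, iron 5 was the highest, and the values rest on 16 to 79 counts per iron library and 19 to 42 per control. This gave a log2 fold change of 1.11 ± 0.61 over 10 libraries (SE; edgeR adjusted p = 0.258) and 0.64 ± 0.33 in the 7 (adjusted p = 0.154).

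Of the transcription factors, Lhx2, a LIM homeodomain factor known in mice to hold stellate cells in their resting state (chromosome 2, 38339281 to 38369733, plus strand), had 11.6, 11.5, 10.0, 11.6 and 0 CPM in iron libraries 1 to 5. Controls 1 to 5 had 26.5, 23.8, 24.8, 23.8 and 22.4 CPM. The groups did not overlap, and iron 5 had no count, where 3 counts would be 0.271 CPM. In edgeR the log2 change was -1.43 ± 0.74 over 10 libraries (SE; edgeR adjusted p = 0.228), -1.12 without iron 5 alone (adjusted p = 0.00032) and -1.06 ± 0.10 in the 7 libraries (adjusted p = 2.21e-06).

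Hand2, a basic helix-loop-helix factor of mesenchyme (chromosome 8, 57320983 to 57324633, plus strand), had 20.6, 20.9, 38.3, 20.8 and 28.3 CPM in iron libraries 1 to 5, against 28.4, 28.7, 22.1, 34.0 and 31.9 CPM in controls 1 to 5. Iron 3 and iron 5 lay above the other iron libraries and control 3 below the other controls, and the groups overlapped. The log2 change was -0.17 ± 0.23 over 10 libraries (SE; edgeR adjusted p = 0.645) and -0.57 ± 0.09 in the 7 (adjusted p = 0.000297), where the groups did not overlap. Hand2os1, which lies on the opposite strand and overlaps Hand2, held 1592 counts in all against 6349 for Hand2, and the strand setting of the counting is not given in the sources used here. Its log2 change was -0.75 ± 0.32 over 10 libraries (SE; edgeR adjusted p = 0.152) and -0.58 in the 7 (adjusted p = 0.0201), so reads of the pair cannot be told apart.

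Tcf21, a basic helix-loop-helix factor of fibroblast and stellate cell lineages (chromosome 10, 22817281 to 22820174, minus strand), had 14.6, 11.1, 11.6, 14.6 and 3.25 CPM in iron libraries 1 to 5. Controls 1 to 5 had 23.1, 22.9, 11, 17.1 and 28.4 CPM. The groups overlapped only through control 3, which lay below 4 of the 5 iron libraries. Its log2 fold change was -0.89 ± 0.39 over 10 libraries (SE; edgeR adjusted p = 0.170) and -0.77 ± 0.16 in the 7 (adjusted p = 0.00164). Gm10824 overlaps Tcf21 on the opposite strand, with 161 counts in all against 3935.

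Gfap, an intermediate filament protein of astrocytes that in rats is also used as a mark of resting stellate cells (chromosome 11, 102887336 to 102900912, minus strand), was near the limit of detection. It had 14, 14, 0, 2 and 0 counts in iron libraries 1 to 5, against 17, 10, 1, 12 and 8 in controls 1 to 5. The highest level was 0.525 CPM, in control 1, and the groups overlapped. This gave a log2 fold change of -0.66 ± 0.91 over 10 libraries (SE; edgeR adjusted p = 0.663) and -0.19 ± 0.50 in the 7 (adjusted p = 0.808), so a difference was not detectable at this depth. Gm26668, on the opposite strand, spans Gfap and had 118 counts in all, against 78 for Gfap itself. The glial markers, which share Gfap's best-known tissue, summed to 0 to 1.85 CPM in iron and 0.556 to 2.29 CPM in control libraries. Sox10 had 1 count in iron 1 and 0 in every other stellate library.

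**Figure D2:**
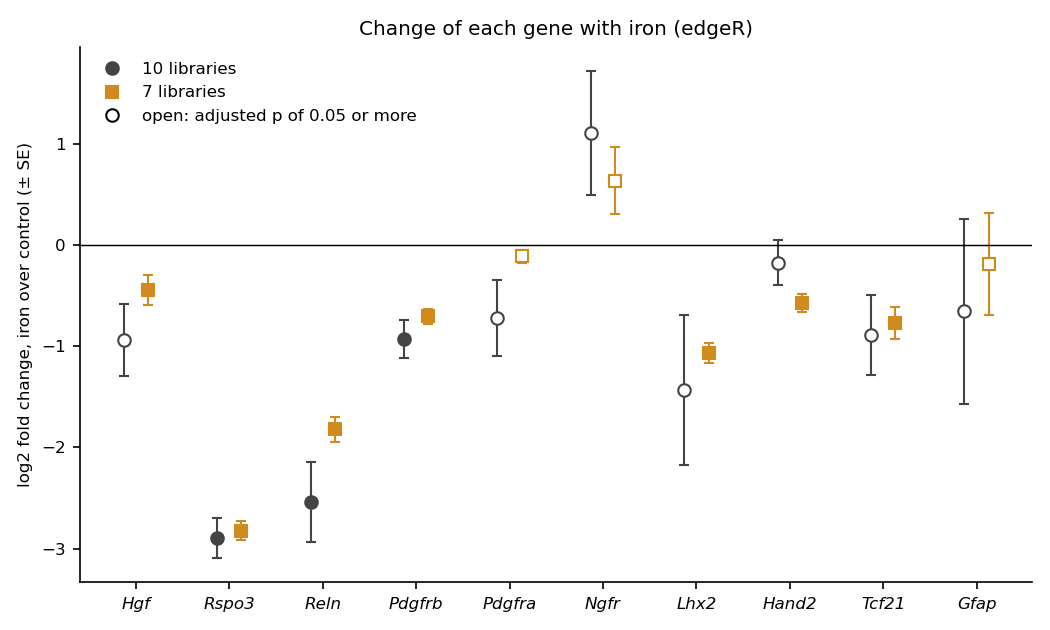
Log2 fold change of each gene, iron over control, with its SE, from edgeR on all 10 stellate libraries (circles) and on 7 (squares); filled symbols passed an adjusted p of 0.05. Rspo3, Reln and Pdgfrb passed in both sets, and Hgf, Lhx2, Hand2 and Tcf21 in the 7 libraries alone.

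Without overlap between groups, 4 of the 10 genes were lower in all iron libraries than in any control, against 13.4% of all genes tested. They were Reln, Pdgfrb, Rspo3 and Lhx2. In the 7 libraries these and Hand2 and Tcf21 did so, 6 of 10, against 22.8% of all genes.

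Levels between genes were compared per kilobase of exon, as FPKM, in the 7 libraries. In control cells Pdgfrb averaged 77.9 ± 5.03 FPKM and Rspo3 77.6 ± 5.00 FPKM (SD, n = 4), which did not differ beyond their spread. Pdgfra followed at 25.2 ± 1.05 FPKM, and then Hand2 at 13.3 ± 1.2 and Reln at 12.8 ± 0.553 FPKM, again within their spread. Tcf21 at 9.90 ± 2.03 and Hgf at 7.59 ± 0.544 FPKM differed by about the spread of Tcf21, and Lhx2 came next at 5.58 ± 0.366 FPKM. Ngfr averaged 0.287 ± 0.0727 FPKM and Gfap 0.1 ± 0.0245 FPKM. In iron-treated cells the order was Pdgfrb at 50.4 ± 3.54, Pdgfra at 24.5 ± 1.75, Rspo3 at 11.6 ± 1.24 and Hand2 at 9.42 ± 0.111 FPKM (SD, n = 3). Below them stood Tcf21 at 6.10 ± 0.898 and Hgf at 5.82 ± 1.73 FPKM, which overlapped, then Reln at 3.78 ± 0.852 and Lhx2 at 2.81 ± 0.0473 FPKM, then Ngfr at 0.470 ± 0.135 and Gfap at 0.090 ± 0.0529 FPKM. Rspo3 was thus level with Pdgfrb in control cells, and below Pdgfra in iron-treated cells.

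Each gene was then set against Pdgfrb, a mesenchymal receptor, of the same library. The log2 of this CPM ratio (prior count of 2) does not depend on library scaling, and it was tested with limma over all genes. Since Pdgfrb itself fell, the median change of all genes in this ratio was 0.70 in 10 libraries as in 7, and 38.7% of 15501 genes were called higher and 1.17% lower over 10 libraries. Reln and Rspo3 were called lower and Ngfr higher, 2 and 1 of the 9 genes.

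Rspo3 stood at 11.8%, 12.5%, 11.4%, 14.8% and 9.50% of Pdgfrb CPM in iron libraries 1 to 5, against 60.0%, 61.2%, 25.0%, 49.1% and 55.2% in controls 1 to 5. The groups did not overlap, and control 3 was the lowest control. The change in log2 ratio was -2.01 ± 0.26 over 10 libraries (SE; limma adjusted p = 0.000743) and -2.12 ± 0.11 in the 7 (adjusted p = 7.01e-13). Reln stood at 34.5%, 38.8%, 15.8%, 24.6% and 28.8% of Pdgfrb CPM in iron libraries 1 to 5, against 70.5%, 78.2%, 128.6%, 66.5% and 69.2% in controls 1 to 5. These groups did not overlap either. The change in log2 ratio was -1.55 ± 0.28 over 10 libraries (SE; limma adjusted p = 0.00381) and -1.15 ± 0.13 in the 7 (adjusted p = 6.38e-08).

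Pdgfra stood at 86.4%, 98.4%, 46.4%, 83.2% and 23.0% of Pdgfrb CPM in iron libraries 1 to 5, against 58.1%, 60.0%, 60.7%, 57.5% and 61.4% in controls 1 to 5. The controls were tight, 3 iron libraries lay above them, and iron 3 and iron 5 lay below. The change in log2 ratio was 0.00 ± 0.36 over 10 libraries (SE; limma adjusted p = 0.997) and 0.59 ± 0.10 in the 7 (adjusted p = 1.5e-05), which is 0.11 below the median of all genes. In the 7 libraries 2 of 9 genes, Pdgfra and Ngfr, were called higher and 3, Reln, Rspo3 and Lhx2, lower, against 75.1% and 3.95% of all genes.

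For Lhx2 the change in log2 ratio was -1.59 ± 1.17 over 10 libraries (SE; limma adjusted p = 0.325) and -0.36 ± 0.13 in the 7 (adjusted p = 0.0166). For Ngfr it was 1.68 ± 0.55 over 10 libraries (limma adjusted p = 0.0334) and 1.27 ± 0.33 in the 7 (adjusted p = 0.00159), which is 0.97 and 0.58 above the median of all genes. This call of Ngfr was lost in 7 of the 10 fits that left out 1 library (each of control 1, 2, 4 and 5 and iron 1, 2 and 3), with adjusted p of 0.0116 to 0.0694 over the 10. Hgf, Hand2, Tcf21 and Gfap were not called in either set, with changes of -0.24, 0.69, -0.09 and 0.03 over 10 libraries and 0.21, 0.14, -0.05 and 0.36 in the 7.

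**Figure D3:**
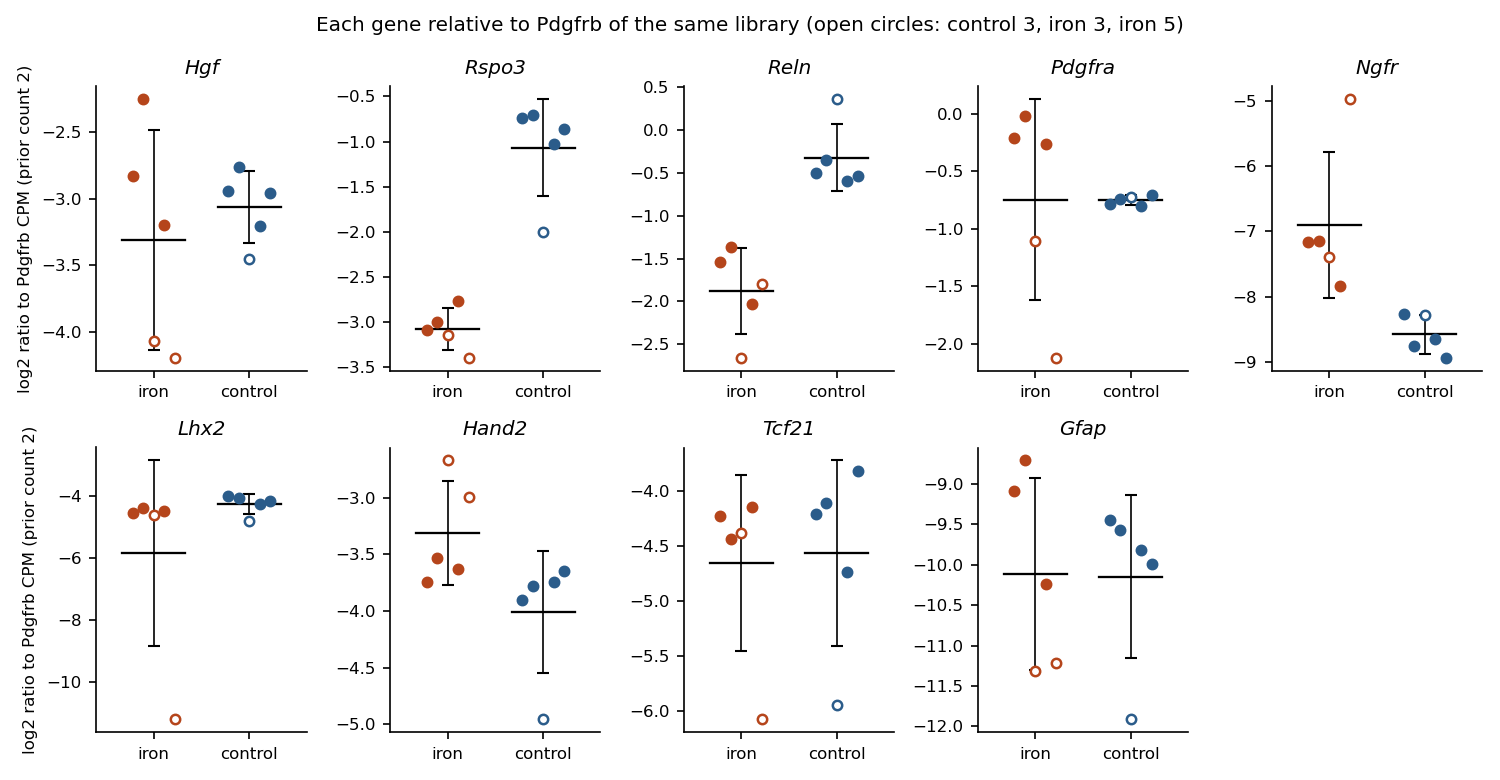
Log2 ratio of each gene's CPM to that of Pdgfrb in the same library (prior count of 2), for iron and control stellate libraries (points; line and bar, mean ± SD), with control 3, iron 3 and iron 5 as open circles. Rspo3 and Reln lie lower and Ngfr higher in all iron libraries than in any control.

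The partners of these genes were then counted by pathway. Among all genes tested, 4.05% were called higher and 3.37% lower over 10 libraries, and 18.3% higher and 19.8% lower in the 7. The counts of each list below stand beside these shares. Of 10 genes of the PDGF system, all tested, 1 rose and 1 fell over 10 libraries and 5 rose and 2 fell in the 7 (median log2 changes 0.28 and 0.25). Beside the fall of Pdgfrb, the ligand gene Pdgfb rose by 1.51 ± 0.19 on the log2 scale (SE; edgeR adjusted p = 0.00103), to 28 ± 3.73 CPM in iron against 9.82 ± 1.47 CPM in control cells (SD, n = 5 each). Without iron 5 the count that rose was 3. Pdgfb is also made by macrophages, whose 13 tested markers were called higher in the iron libraries, and by endothelial cells. Of the 12 endothelial markers 5 were called higher over 10 libraries, where their summed levels overlapped. In the 7 libraries 11 were called higher and 1 lower, with sums of 911.9 to 944.6 CPM in iron and 719.0 to 783.7 CPM in controls. The part of macrophages or of endothelial cells was not tested.

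Of 9 genes tested around HGF, 1 rose and 1 fell over 10 libraries and 2 rose and 6 fell in the 7 (medians -0.22 and -1.13). Mst1r, the receptor of the HGF-like protein MSP, fell by 1.6 on the log2 scale (edgeR adjusted p = 0.0160), with 7.84 ± 3.44 CPM in iron and 23.9 ± 3.31 CPM in control cells. Spint1, an inhibitor of the proteases that activate HGF, rose by 2.47 ± 0.55 (SE; edgeR adjusted p = 0.0199), with 6.28 ± 5.41 CPM in iron and 1.12 ± 0.419 CPM in control cells. In the 7 libraries its rise was smaller, 1.55 (edgeR adjusted p = 0.000741). The call of Spint1 over 10 libraries was lost without control 1 (adjusted p = 0.0676) or control 2 (adjusted p = 0.0672). Without iron 5 the count that fell was 2.

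Of 13 tested genes of R-spondin and WNT signalling, 2 rose and 2 fell over 10 libraries, and of 14 in the 7 libraries 4 rose and 5 fell (medians -0.72 and -0.21). Beside Rspo3, the WNT feedback inhibitor Nkd1 fell by 1.02 on the log2 scale (edgeR adjusted p = 0.0133), to 17.9 ± 3.41 CPM in iron against 36.2 ± 6.23 CPM in control cells. Axin2 of the same list, chosen after its values were seen, went the other way. Its log2 change was 1.03 over 10 libraries (edgeR adjusted p = 0.437) and 1.675 in the 7 (adjusted p = 0.00255). Lgr6, a receptor of R-spondins, rose by 2.66 ± 0.29 (SE; edgeR adjusted p = 0.00045), to 17.2 ± 4.41 CPM in iron against 2.71 ± 0.766 CPM in control cells. Wnt2, a WNT ligand known from liver endothelium, rose by 1.81 ± 0.32 (adjusted p = 0.00653), to 13.1 ± 3.41 CPM in iron against 3.69 ± 1.26 CPM in control cells. Rspo1, the relative of Rspo3 and chosen after its values were seen, was at 1.39 ± 0.820 CPM in iron and 6.69 ± 1.61 CPM in control cells. Its log2 change was -2.25 ± 0.67 over 10 libraries (SE; edgeR adjusted p = 0.0687), -1.96 without iron 5 (adjusted p = 0.00082) and -2.12 ± 0.21 in the 7 (adjusted p = 6.03e-06).

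Of the 8 tested genes of reelin signalling 1, Reln, was called over 10 libraries in edgeR, where DESeq2 called 2 lower, Reln and Lrp8. Without iron 5 edgeR called 3 lower, and in the 7 libraries 2 rose and 4 fell (medians -0.62 and -0.41). The 2 lipoprotein receptors that bind reelin, chosen after their values were seen, fell in the 7 libraries: Vldlr with a log2 fold change of -1.08 ± 0.09 (SE; edgeR adjusted p = 1.43e-06) and Lrp8 with one of -0.54 ± 0.08 (adjusted p = 0.000111). Over 10 libraries their log2 changes were -1.66 (adjusted p = 0.186) and -0.79 (adjusted p = 0.0526), and without iron 5 they were -1.34 (adjusted p = 0.00135) and -0.85 (adjusted p = 0.0230). Over the 10 libraries Lrp8 was called in DESeq2 (-0.81, adjusted p = 0.0196) and Vldlr in limma on log2(FPKM + 1) (-1.18, adjusted p = 0.0243), and both in voom with sample quality weights. Of 6 tested neurotrophin genes 0 were called over 10 libraries in edgeR (1 higher and 1 lower at an unadjusted p under 0.05, and 0 higher and 1 lower in DESeq2). Without iron 5 it was 1 higher, and without control 3 it was 1 lower. Of 8 in the 7 libraries 2 rose and 3 fell.

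Of 20 transcription factors of stellate cells and liver mesenchyme, all tested, 1 rose and 0 fell over 10 libraries in edgeR (2 were lower at an unadjusted p under 0.05, and 0 in DESeq2), and 8 rose and 6 fell in the 7 (medians -0.16 and 0.10). Lhx2, Hand2 and Tcf21 were among the 6. Twist1, a basic helix-loop-helix factor of mesenchyme, was the 1 that rose, by 1.43 ± 0.39 (SE; edgeR adjusted p = 0.0499). It lost its call in 9 of the 10 fits that left out 1 library, each but that without iron 5, with adjusted p of 0.00292 to 0.127 over the 10. Without iron 5, 4 of the 20 rose and 2 fell.

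Among 19 tested growth factors that stellate cells can make, 2 rose and 7 fell over 10 libraries, and of 20 in the 7 libraries 4 rose and 12 fell (medians -0.90 and -0.63). Vegfd, a lymphatic growth factor, fell by 2.36 on the log2 scale (edgeR adjusted p = 6.15e-06), to 51.3 ± 2.13 CPM in iron against 263.3 ± 20.5 CPM in control cells (SD, n = 5 each). Gdf2, which encodes BMP9, fell by 2.57 (edgeR adjusted p = 0.00017), to 5.41 ± 1.45 CPM in iron against 32.3 ± 3.56 CPM in control cells. Gas6, a ligand of AXL and MERTK, fell by 1.83 (adjusted p = 0.000821) and Bmp4 by 1.68 (edgeR adjusted p = 0.00132). The 2 that rose, chosen after their values were seen, were Igf1 and Bmp2. Igf1 rose by 1.82 (edgeR adjusted p = 0.0022) and Bmp2 by 1.36 (adjusted p = 0.00556). Of 9 tested genes for filaments and neural-type proteins, 1 rose and 1 fell over 10 libraries, and of 10 in the 7 libraries 4 rose and 3 fell (medians 0.25 and 0.20). Without iron 5, 2 rose and 2 fell. Synm, the filament protein synemin, fell by 2.26 (edgeR adjusted p = 0.00216), to 6.24 ± 1.86 CPM in iron against 29.9 ± 12.5 CPM in control cells. Ncam1, an adhesion protein of nerve and stellate cells, rose by 2.59 ± 0.36 (SE; edgeR adjusted p = 0.00154), to 48.0 ± 22.9 CPM in iron against 7.98 ± 2.56 CPM in control cells.

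**Figure D4:**
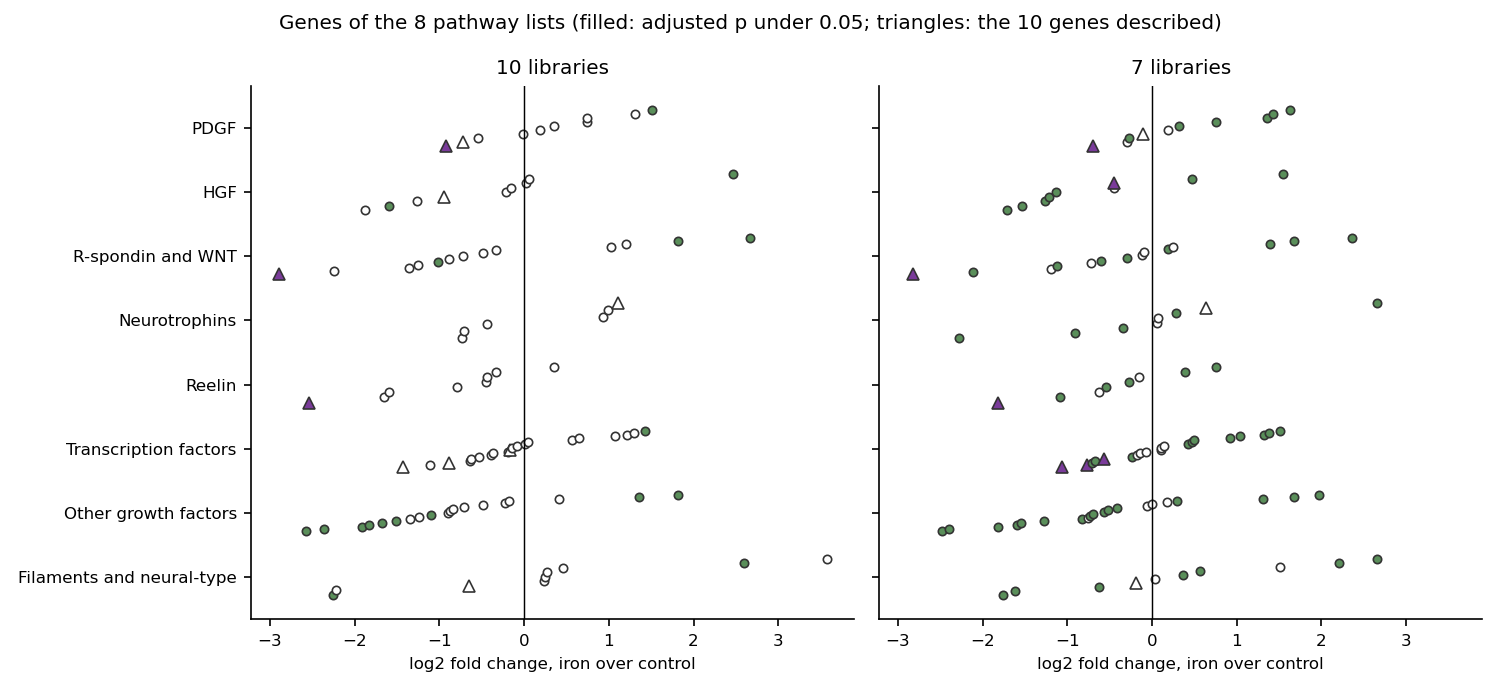
Log2 fold change, iron over control, of each tested gene of the 8 pathway lists, in all 10 stellate libraries (left) and in 7 (right); filled symbols passed an adjusted p of 0.05 in edgeR and triangles are the 10 genes described. Rspo3 and Reln lie at the low end of their lists in both panels.

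In hepatocyte cultures the 10 genes were present at traces only. The highest FPKM of any of them in the 12 libraries was 0.26, for Rspo3, where its lowest value in a stellate library was 6.36, in tables normalised separately. Pdgfrb reached at most 0.11 FPKM in hepatocytes, against at least 37.9 in stellate libraries, and Hand2 at most 0.06 against at least 8.52. Gfap reached 0.06 FPKM in hepatocytes, within the 0 to 0.13 FPKM of the stellate libraries. Of the 10 genes 4 passed the filter on low counts, Reln, Pdgfra, Hgf and Rspo3, and 6 did not. Of the 14 stellate markers 7 were tested in hepatocytes, of which 4 were called higher and 3 lower with DFO, and their summed level was 226.9 to 260.9 CPM with DFO and 252.5 to 275.7 CPM in controls.

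Reln was the 1 gene of the 4 called higher with DFO, where 27.9% of 15660 genes tested were. It passed the filter on low counts through its DFO libraries, so its place among the 4 is no separate support. With no filter 1 of the 10 genes, Reln, was called higher. It had 46, 73, 52, 41, 49 and 32 counts in DFO libraries 1 to 6, against 6, 10, 6, 5, 2 and 10 counts in controls 1 to 6. All DFO libraries lay above all controls, as they did for 16.6% of all genes. The level was 1.38 ± 0.394 CPM with DFO and 0.202 ± 0.0914 CPM in controls (SD, n = 6 each). Its log2 change was 2.82 ± 0.29 (SE; edgeR adjusted p = 2.51e-07). No gene of the 10 was called lower in edgeR (0 at an unadjusted p under 0.05, and 0 in DESeq2), where 30.1% of all genes were. The log2 changes of the others were -0.27 ± 0.22 for Pdgfra (adjusted p = 0.310), 0.23 ± 0.24 for Hgf (adjusted p = 0.439) and 0.59 ± 0.27 for Rspo3 (SE; edgeR adjusted p = 0.0730). Which cells held these counts was not tested.

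**Figure D5:**
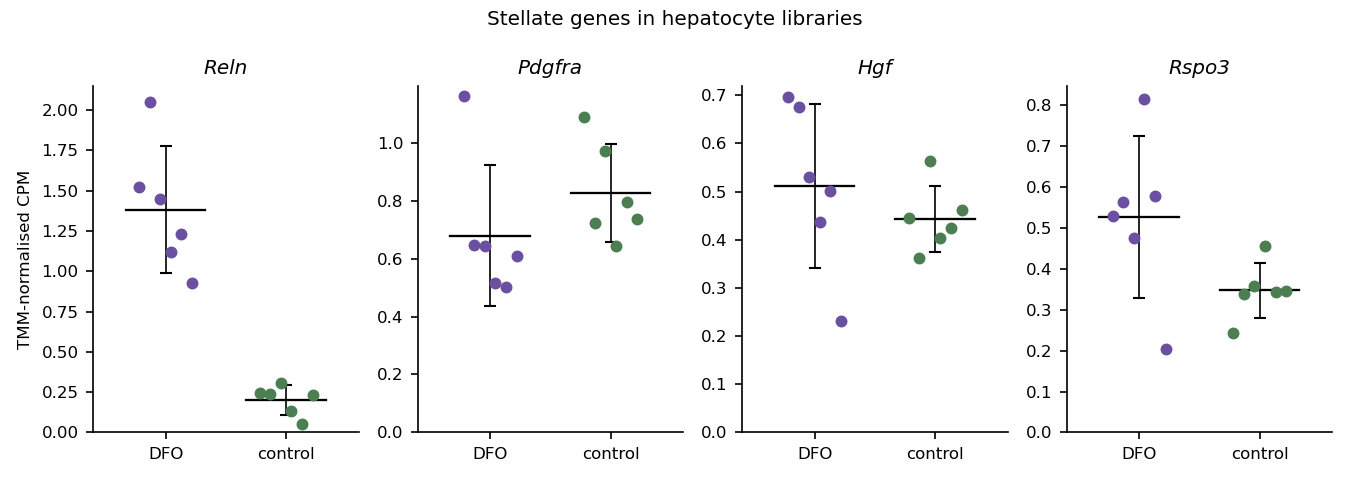
TMM-normalised CPM of the 4 genes that passed the filter on low counts in the 6 DFO and 6 control hepatocyte libraries (points; line and bar, mean ± SD). Reln lies between 0.927 and 2.05 CPM in DFO libraries, above the 0.053 to 0.307 CPM of controls, and the groups overlap for Pdgfra, Hgf and Rspo3.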

How the data were processed

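Gene-level RNA-seq values of 22 libraries were used, in 4 groups. The authors deposited unnormalised counts for each Ensembl gene. The deposited FPKM equal the counts divided by exonic length and library total. Exonic length in bases is a further deposited column. The tools named in the submitters' processing notes are HISAT2 2.0.1 and cutadapt 1.9.1, with mm10 as genome build. How reads were counted, with which annotation and strand setting, is not given in the sources used. The labels' protocols name a small RNA kit and 4 biological replicates per group, whereas 6 and 5 libraries are labelled. P-values reflect only the spread among libraries of a group, possibly technical.

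Each cell type was fitted alone with edgeR 4.0.16 (R 4.3.3): TMM normalisation, filterByExpr, quasi-likelihood test, two-sided, Benjamini-Hochberg over all genes tested, threshold 0.05. SE is the one the F value implies. Levels are TMM-normalised CPM, and those of the 7-library set keep the scaling of all 10. Ratios to Pdgfrb were tested with limma 3.58.1. Alternatives were DESeq2 1.42.0, RLE scaling, no filter, limma on log2 FPKM with a pseudocount of 1 or 0.1 (FPKM of 0.5 or more in 3 libraries), voom with sample quality weights, a replicate block, 7 libraries and leaving out each library. Libraries of a group differed beyond sampling noise in every pair (lowest chi-square per degree of freedom 5.59 in stellate cells, 3.44 in hepatocytes). The tests were checked on simulated data, in which most small changes were missed in the stellate design.

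The 10 genes, 18 gene lists (8 pathways, 10 cell types; 184 genes) and tests were chosen with earlier results of these data known. Genes other than the 10 were named by a rule: of each list the called genes of smallest p, at most 4, or up to 2 if none is called, the first 2 of each marker list, the neighbour of Pdgfrb and overlapping genes. Not all genes so named are described, and a gene chosen after its values were seen is marked. Results for some listed genes are not reported here.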

Additional observations from a re-analysis of the deposited data

Results flagged for a closer look

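Of 28 groups of values (each gene in each group of 5 or 6 libraries in which it was tested), 6 held 1 library far from the others of its group. Chance gives about 1 in 20 for a single group. The 28 are not independent, since control 3 and iron 5 were each flagged for more than 1 gene. In stellate controls, control 3 had 885.1 CPM of Reln, where the other 4 had 277.3 to 309.9 CPM. It had 417.6 CPM of Pdgfra, where the others had 237.7 to 262.3 CPM, and 688.0 CPM of Pdgfrb, where the others had 396.2 to 456.4 CPM. These 3 values come from a library whose counts fell on longer genes than those of the other libraries, with a mean exonic length of 7.23 kilobases per count. Iron 5 had 0 CPM of Lhx2, where the other iron libraries had 10.0 to 11.6 CPM, and 7.14 CPM of Ngfr, where the others had 1.04 to 1.84 CPM. In that library 12535 genes had a count, the fewest of the 10. In hepatocytes, DFO library 1 had 1.16 CPM of Pdgfra, where the other DFO libraries had 0.502 to 0.647 CPM. The part of gene length, of depth or of other cells in these values was not tested.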

How the results depend on the processing

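Rspo3 kept its call in all 19 alternatives and Reln and Pdgfrb in 18 of 19 each, all but the replicate block. Of the 10 genes (members), those called lower (3) were 7 with voom quality weights, 1 with the replicate block, 7 in the 7 libraries and 7 there with the block, and 3 to 4 when single libraries were left out; members called higher (0) were 1 with voom quality weights. All genes lower (523) were 1280 in DESeq2, 337 with no filter, 3264 with voom, 68 with the block, 3224 in 7 libraries, 2747 there with the block, and 262 to 1276 leaving out single libraries. All genes higher (628) were 1615 in DESeq2, 3055, 107, 2988 and 2410 in voom, block, 7 libraries and 7 with the block, and 343 to 1186. Listed genes lower, members aside (18), were 33 in DESeq2, 60, 6, 59 and 55 in voom, block, 7 libraries and 7 with the block, and 11 to 33; those higher (34) were 59, 19, 62 and 54, and 30 to 43. In ratio to Pdgfrb, members lower (2) were 3 in the 7 libraries and members higher (1) were 0 against the summed Col1a1, Col1a2, Col3a1 and Sparc, 0 with the block, 2 in 7 libraries, and 0 to 1 leaving out single libraries. All genes lower in ratio (181) were 274 against the summed genes, 56 with the block, 612 in 7 libraries and 111 to 268; those higher (5998) were 1792, 1666, 11638 and 4030 to 8731. In hepatocytes voom called 2 members higher, Reln and Rspo3. The cause of these differences was not tested.

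Signs turned for values that were not called in the 10 libraries. Des (0.28) was -0.64 with voom, -0.63 in 7 libraries and -0.66 there with the block. Myh11 (-0.45) was 0.064 with voom and 0.037 in 7 libraries. Gm10824 was 0.035 with voom and 0.048 in 7 libraries with the block, and Gm26668 (0.40) was -0.002 with voom, -0.15 with the block and -0.33 to 0.69 leaving out single libraries. In ratio to Pdgfrb, Pdgfra was -0.31 against the summed genes and -0.18 to 0.35 leaving out single libraries, Hgf 0.21 in 7 libraries, Gfap -0.28 against the summed genes, -0.62 with a prior count of 0.5 and -0.41 to 0.34 leaving out single libraries, and Tcf21 -0.44 to 0.27.

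Whether same-numbered libraries of the groups share a preparation is not stated. Their deviations correlated at -0.32 to 0.12 in stellate cells and -0.25 to -0.00 in hepatocytes, and 0 libraries correlated best with their own number. These correlations gave no sign of pairing but cannot exclude it, since the stellate libraries that stood apart weigh on the deviations. The loss of the Reln and Pdgfrb calls with the replicate block therefore stands as a limit. On log2(FPKM + 1) no member passed the filter in hepatocytes. Values under about 0.3 CPM rest on few counts.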

Other observations

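Markers of further cell types were measured in the stellate libraries. Their counts stand beside 4.05% of all genes called higher and 3.37% lower over 10 libraries, and 18.3% and 19.8% in the 7. Of 10 genes of activated stellate cells and myofibroblasts 1 was called higher and 2 lower with iron over 10 libraries and 1 higher and 5 lower in the 7 (edgeR, medians -0.37 and -0.09). The count called lower was 1 without any one of controls 1 to 5, iron 1, iron 3 or iron 4, since Postn, a matrix protein, then lost its call (adjusted p up to 0.108). Lox, a collagen cross-linking enzyme, fell by 2.21 on the log2 scale (edgeR adjusted p = 0.00563), with 904.1 ± 430.2 CPM in iron and 4189.2 ± 660.6 CPM in control cells (SD, n = 5 each). Timp1, an inhibitor of metalloproteinases, rose by 2.89 ± 0.60 (SE; adjusted p = 0.0145), with 1754.8 ± 1643.5 CPM in iron and 237.0 ± 87.2 CPM in control cells. Its log2 change was 1.43 to 3.10 over the alternatives. Acta2, smooth muscle actin, was at 4822.7 ± 1478.2 CPM in iron and 3017.1 ± 733.6 CPM in control cells, a log2 change of 0.68 (edgeR adjusted p = 0.149). That change was 0.12 to 0.78 over the alternatives.

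Of 4 smooth muscle genes 2 were called higher in both sets of libraries. Cnn1, calponin, rose by 2.76 ± 0.31 (SE; edgeR adjusted p = 0.000514), with 204.9 ± 86.7 CPM in iron and 30.3 ± 7.47 CPM in control cells. Myh11 of the same list was called in neither set. Its log2 change was -0.45 over 10 libraries (edgeR adjusted p = 0.309) and 0.037 in the 7 (adjusted p = 0.822). Of 10 genes of mesothelium and portal fibroblasts 3 were called higher and 1 lower over 10 libraries, and 5 and 2 in the 7. The gene called lower, Entpd2, lost its call in 9 of the 10 fits that left out 1 library (adjusted p up to 0.113), and without iron 5 the count was 2. Thy1, a portal fibroblast surface protein, rose by 1.74 ± 0.30 (SE; edgeR adjusted p = 0.00541). The summed level of this list went the other way, at 1204.7 to 1852.9 CPM in iron and 2073.7 to 2942.9 CPM in controls. In the 7 libraries it was 1762.8 to 1852.9 CPM in iron and 2073.7 to 2363.5 CPM in controls. Of 3 tested cholangiocyte genes 1 was called higher over 10 libraries, Krt19, by 2.56 ± 0.49 (SE; edgeR adjusted p = 0.0102). In the 7 libraries 1 of the 3 was called higher and 1 lower. The list summed to 60.3 CPM in iron 3 and 75.1 CPM in iron 5. It summed to 17.3 to 27.5 CPM in the other iron libraries and 14.0 to 18.6 CPM in controls. Of 8 hepatocyte genes 2, Apob and Cps1, were called lower over 10 libraries and 8 in the 7. Cps1 lost its call in 9 of the fits that left out 1 library, each but that without iron 5 (adjusted p of 0.0141 to 0.113), and Apob in 0. Of the lymphocyte list 1 gene, Ptprc, was tested and called higher (edgeR adjusted p = 0.0477). It lost its call in 7 of the fits that left out 1 library (each of control 1, 2, 4 and 5 and iron 1, 2 and 4), with adjusted p of 0.0163 to 0.125. In that list Cd3e was at 0 in all stellate libraries, and Nkg7 at 0 in all iron libraries.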
